A study of Mus musculus with 12 samples.

Results

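The genes described here are 39 mouse genes of glycolysis and pyruvate metabolism, out of 16411 genes in the count table. They were chosen by name: the glucose transporters, the isoforms of each glycolytic enzyme from hexokinase to lactate dehydrogenase, the bifunctional Pfkfb enzymes, the monocarboxylate transporters, the pyruvate dehydrogenase complex with its kinases and phosphatases, and pyruvate carboxylase. RNA sequencing was done on 6 mammary tumors and 6 benign mammary tissues from female MMTV-Neu-NDL-YD5 mice. All 12 samples came from mice on an FVB background, heterozygous for a transgene in which the MMTV promoter drives an activated HER2 (Neu) receptor in mammary epithelium. The benign samples were mammary tissue with no visible tumor, taken far from any tumor, and they carry the transgene as well. They came from other mice than the tumors did, and the age of each mouse was not given in the sources used here.

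Glycolysis splits glucose into pyruvate in the cytosol and yields ATP and NADH. Pyruvate is then reduced to lactate by lactate dehydrogenase and exported, or it enters mitochondria, where the pyruvate dehydrogenase complex converts it to acetyl-CoA and pyruvate carboxylase converts it to oxaloacetate. Many steps are encoded by several genes with tissue-typical isoforms, such as the muscle forms Pfkm, Pgam2 and Eno3 or the insulin-regulated transporter Slc2a4 (GLUT4) of muscle and fat. Tumors are known for high glucose uptake and lactate release. In mammary tissue, fat cells make up much of the mass next to epithelium, and both use glucose for different ends.

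Each library held between 5240853 and 8588567 estimated counts, and levels are given as counts per 1000000 counts (CPM) scaled by TMM, a correction for library composition. Erbb2, the gene of the HER2 receptor, lay at 44.8 to 73.7 CPM in benign samples and at 1990 to 16600 CPM in tumors, so the libraries matched their labels. The benign samples differed in muscle content. In benign samples 3, 4 and 6, 15 skeletal muscle markers took 3.32 to 8.01% of all counts, against 0.00403 to 0.0441% in benign samples 1, 2 and 5 and 0.000664 to 0.0177% in tumors, with none of the 15 at 0 in every sample of a group. Benign sample 4 also held the most brown fat marker RNA (6 genes, 0.221% of counts, against 0.00262 to 0.0506% in the other benign samples). Adipocyte markers took 0.839 to 1.77% of counts in benign samples and 0.0015 to 0.0136% in tumors, and 8 of 8 fell. Fibroblast markers went from 0.129 to 0.199% of counts in benign samples to 0.00668 to 0.00986% in tumors (4 of 4 fell), and endothelial markers from 0.0462 to 0.0985% to 0.00732 to 0.00961% (4 of 4). Red blood cell markers went from 0.102 to 0.369% to 0.0254 to 0.067% (3 of 3 fell), and macrophage markers from 0.0176 to 0.0332% to 0.013 to 0.0239% (3 of 4), with the same counts against benign samples 1, 2 and 5. Of 7 epithelial markers, 6 rose and Krt19, a keratin, fell, and the list took 0.0706 to 0.251% of counts in benign samples and 0.275 to 0.457% in tumors. In bulk tissue, fewer cells of a type and less RNA per cell cannot be told apart. This holds for every gene below, and the part of the adipocyte, fibroblast and endothelial markers in its change was not tested. Tumors were therefore compared with all 6 benign samples and, separately, with benign samples 1, 2 and 5. The 2 comparisons share the tumors and 3 benign samples, so their values are given side by side and are not independent of each other. Where a gene's levels follow each other unnamed, they are those of benign samples 1, 2 and 5, then benign samples 3, 4 and 6, then the lowest to highest tumor. A value with ± is a log2 fold change of tumors over benign samples with its standard error, and where 2 follow each other the first is for all benign samples and the second for benign samples 1, 2 and 5.

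With all benign samples, 38 of the 39 genes had enough counts to be tested with edgeR's quasi-likelihood test (adjusted p under 0.1), and 7 were higher in tumors, 17 lower and 14 not called. Over all 13191 genes tested, 28.2% were called higher and 34.8% lower. Against benign samples 1, 2 and 5, 20 of 38 were higher, 16 lower and 2 not called, where 26.7% of 13604 genes were called higher and 28.7% lower. The median log2 fold change of the members was -0.62 with all benign samples and 0.47 with benign samples 1, 2 and 5, next to -0.06 and 0.00095 for all genes. The counts differ through 13 genes. Of the 14 genes not called with all benign samples, 12 were higher against benign samples 1, 2 and 5, namely Gpi1, Aldoa, Tpi1, Gapdh, Pgk1, Pgam1, Pkm, Ldha and Ldhb of the trunk from glucose 6-phosphate to lactate, and Slc16a3, Pdk1 and Pdk2. The other gene, Pfkm, went from lower to higher. The other genes that were called kept their direction, 7 higher and 16 lower in both comparisons, and Eno2 and Pdk3 were called in neither. Pgam2 was not tested in either. Outside the muscle isoforms (Pfkm, Pgam2, Eno3 and Slc2a4), 7 of 35 were higher, 14 lower and 14 not called with all benign samples. Their median log2 fold change was -0.49. Against benign samples 1, 2 and 5, 19 of these 35 were higher, 14 lower and 2 not called, with a median of 0.47.

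Groups were also read by overlap alone. With all benign samples, 6 members were higher in every tumor than in every benign sample and 15 were lower, against 14.7% and 21.2% of all genes tested. With benign samples 1, 2 and 5, 17 members were higher without overlap and 15 lower, against 18.7% and 25.4%. When benign samples 3, 4 and 6 alone were the reference, all 39 genes were tested, and 6 were higher and 24 lower. Of all genes tested there, 29.5% were called higher and 32.0% lower. The 24 included the 4 muscle isoforms, whose levels were partly set by how the benign samples were split by muscle RNA. Pgam2 passed the filter on low counts only in this comparison. Outside the muscle isoforms, 6 of 35 were higher and 20 lower. The plot of fold changes in pathway order shows both comparisons for each gene.

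**Figure D1:**
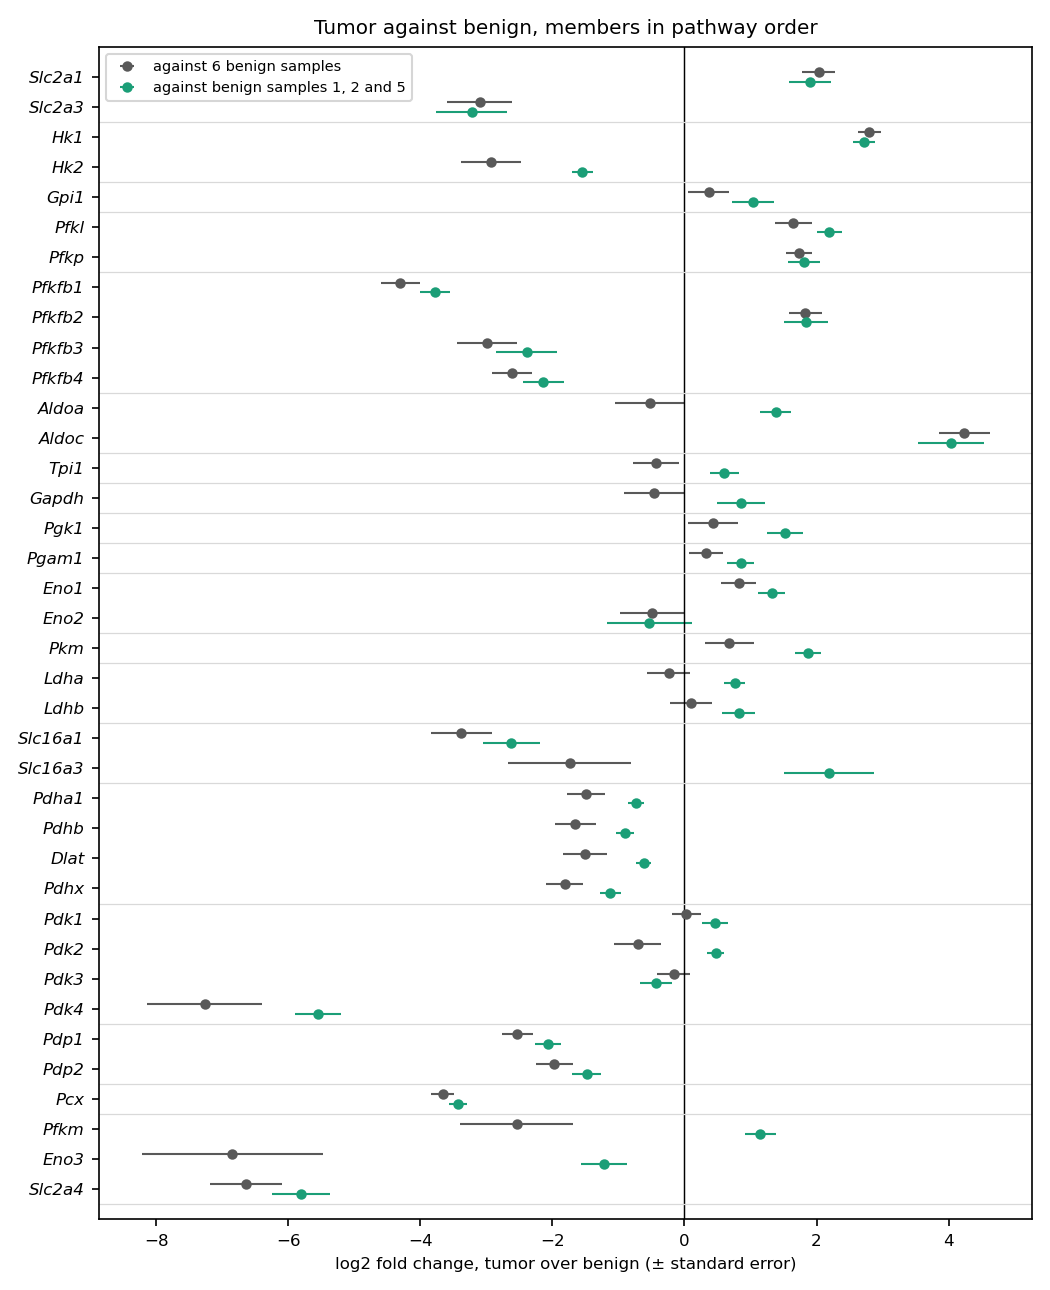
Log2 fold change of tumors over benign samples (x axis) for the 38 tested genes in pathway order (y axis), with 1 standard error on each side; grey points compare with all 6 benign samples and green points with benign samples 1, 2 and 5, and thin lines separate the steps. Hk1, Slc2a1, Pfkl, Pfkp, Aldoc and Pfkfb2 lie right of 0 and the pyruvate dehydrogenase genes, Pdk4 and Pcx left of 0 in both comparisons, whereas Aldoa, Tpi1, Gapdh, Ldha, Slc16a3, Pdk2 and Pfkm lie on opposite sides.

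Promoter sequence was read for the members to set the letters upstream of them beside those of all genes. RefSeq start sites (GRCm38.p6) gave 56 windows of 250 bases before a start for 36 of the 39 genes. Some genes had several windows, and some windows of the same gene overlapped, so shares of windows count some bases more than once. The windows were searched on both strands for the core letters of the hypoxia response element bound by HIF, which come in a form with A (ACGTG) and a form with G first (GCGTG). They were also searched for the palindromic E-box bound by Myc and by the ChREBP and Mlx pair (CACGTG), which contains the form with A. The form with A was in 37.5% of the members' windows and in 16.6% of all 32851 windows, the form with G in 28 of the 56 windows and in 28.2% of all windows, and the E-box in 14.3% and 6.02%. The members' windows were also richer in G and C (median 60.4%, against 52.4% for all windows), and each of these motifs holds a CG pair. The letters were found for both directions of change. Of 20 genes that were higher than in benign samples 1, 2 and 5 and had a window, 10 held the form with A and 13 the form with G, and of 13 such genes that were lower, 6 and 9 did. These counts are by gene, over any of its windows, and no such share was computed over all genes. A match is a description of the letters and not of a bound site. Shown are 2 genes that were higher against benign samples 1, 2 and 5, Pfkl of phosphofructokinase (chr10:78009808-78010057, minus strand) and Pgk1 of phosphoglycerate kinase (chrX:106186850-106187099, plus strand), and 2 that were lower, the monocarboxylate transporter Slc16a1 (chr3:104638414-104638663, plus strand) and the pyruvate dehydrogenase kinase Pdk4 (chr6:5496279-5496528, minus strand), each the 250 bases just upstream of the gene's only listed start and written 5′ to 3′ on the gene's strand. Capitals mark either form of the core on either strand.
Pfkl: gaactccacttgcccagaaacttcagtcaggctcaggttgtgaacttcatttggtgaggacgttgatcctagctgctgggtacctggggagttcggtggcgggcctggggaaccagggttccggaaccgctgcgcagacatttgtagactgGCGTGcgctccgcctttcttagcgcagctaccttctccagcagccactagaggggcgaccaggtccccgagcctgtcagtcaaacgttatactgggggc
Pgk1: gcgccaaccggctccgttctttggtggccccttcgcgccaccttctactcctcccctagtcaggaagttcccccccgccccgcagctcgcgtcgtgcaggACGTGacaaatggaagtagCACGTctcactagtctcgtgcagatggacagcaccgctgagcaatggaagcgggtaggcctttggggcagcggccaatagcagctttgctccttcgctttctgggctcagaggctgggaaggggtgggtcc
Slc16a1: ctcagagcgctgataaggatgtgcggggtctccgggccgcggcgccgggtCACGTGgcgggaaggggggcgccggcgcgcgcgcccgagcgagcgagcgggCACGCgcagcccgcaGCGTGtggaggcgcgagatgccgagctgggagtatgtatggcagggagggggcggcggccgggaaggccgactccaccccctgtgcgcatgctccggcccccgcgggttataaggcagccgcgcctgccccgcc
Pdk4: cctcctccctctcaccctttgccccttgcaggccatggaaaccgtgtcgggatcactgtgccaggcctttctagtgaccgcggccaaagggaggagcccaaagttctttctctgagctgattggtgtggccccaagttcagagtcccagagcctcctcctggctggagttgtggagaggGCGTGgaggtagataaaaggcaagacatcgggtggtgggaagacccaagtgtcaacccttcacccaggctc
Pgk1 held 2 such cores and Slc16a1 held 4, among them the 2 strands of an E-box, while Pfkl and Pdk4 held 1 each.

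The glucose transporter genes moved in opposite directions. Slc2a1 (GLUT1), the transporter of basal glucose uptake, was at 58.4, 50.5 and 50.9 CPM in benign samples 1, 2 and 5, at 54.2, 32.2 and 36.2 CPM in benign samples 3, 4 and 6, and at 79.8 to 239 CPM (median 211) in the tumors. All tumors exceeded all benign samples, and tumor 5 was the lowest of the tumors. The log2 fold change was 2.03 ± 0.25 (adjusted p = 1.7e-05) with all benign samples and 1.90 ± 0.32 (adjusted p = 0.00087) with benign samples 1, 2 and 5. Slc2a4, which moves to the cell surface on insulin, was at 206, 181 and 197 CPM, at 359.6, 504 and 594 CPM and at 0.467 to 5.64 CPM (median 3.53) in the same order. Every tumor lay below every benign sample, with a log2 fold change of -6.64 ± 0.54 (adjusted p = 4.4e-07) and -5.80 ± 0.44 (adjusted p = 4.8e-06), the latter being 55.6-fold lower. Its fall stood beside that of the adipocyte, fibroblast and endothelial markers, whose part in it was not tested. Slc2a3 (GLUT3), a high-affinity transporter, fell from low levels (4.12 to 25.8 CPM (median 6.19) in benign samples) to 0.934 to 1.65 CPM (median 1.06), a log2 fold change of -3.10 and -3.22. The highest Slc2a3 value was that of benign sample 1, in which 4 lymphocyte markers also took 0.0467% of counts, against at most 0.000379% in any other benign sample. Without benign sample 1 the log2 fold change of Slc2a3 was -2.52 with all other benign samples and -1.92 against benign samples 2 and 5. On CPM per kilobase of transcript, which allows levels of different genes to be added, Slc2a4 made up 77.0 to 82.4% of the sum of the 3 transporters in benign samples 1, 2 and 5 and 0.291 to 6.33% in tumors. The sum of the 3 was below every benign sample in all 6 tumors (26.4 to 74.4, against 88.4 to 106 in benign samples 1, 2 and 5). With the union of all exons as the length in place of the principal transcript, an alternative added after the data were seen, 4 of 6 tumors were below every benign sample.

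Hexokinase, which traps glucose as glucose 6-phosphate, changed isoform in a similar way. Hk1, the widely expressed form, was at 137, 146 and 137 CPM in benign samples 1, 2 and 5, at 137, 133 and 80.1 CPM in benign samples 3, 4 and 6, and at 749 to 1013 CPM (median 931) in tumors. The tumors formed a tight group far above the benign samples, and the log2 fold change was 2.80 ± 0.17 (adjusted p = 2.8e-08), 6.97-fold, with all benign samples and 2.72 ± 0.17 (adjusted p = 1.3e-06) with benign samples 1, 2 and 5. Hk2, the insulin-regulated form of muscle and fat, went the other way. Its level was 120.2, 92.3 and 111 CPM, then 267, 523 and 509.8 CPM, then 24.6 to 43.9 CPM (median 37.2) in tumors, with no overlap between tumors and either set of benign samples. The log2 fold change was -2.93 ± 0.45 (adjusted p = 0.00013) and -1.55 ± 0.16 (adjusted p = 4e-05). Per kilobase, Hk1 made up 61.9 to 69.3% of hexokinase in benign samples 1, 2 and 5, 18.4 to 42.4% in benign samples 3, 4 and 6, and 96.5 to 98.2% in tumors. With the union of exons, these shares were 44.3 to 52.5%, 9.9 to 26.5% and 93.1 to 96.4%. Which form was the larger in benign samples 1, 2 and 5 thus depended on the length used. The sum of both forms had a tumor median 4.46 times that of benign samples 1, 2 and 5 and 2.18 times that of benign samples 3, 4 and 6, and all 6 tumors lay above all benign samples. This sum depends on the transcript lengths used. With the union of exons, the ratios were 3.31 and 1.21, and 4 of 6 tumors lay above all benign samples. Gpi1, the isomerase that follows, was at 422, 365 and 347 CPM, 629, 914 and 814 CPM and 516 to 1405 CPM (median 617), with tumor 5 the highest. It was higher than in benign samples 1, 2 and 5 in 6 of 6 tumors, with 1.04 ± 0.32 (adjusted p = 0.022), while tumors and benign samples 3, 4 and 6 overlapped and the comparison with all benign samples gave 0.37 ± 0.31 (adjusted p = 0.33).

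Phosphofructokinase commits sugar phosphates to glycolysis, and its liver and platelet genes both rose. Pfkl was at 149, 180.2 and 187 CPM in benign samples 1, 2 and 5, at 221, 516 and 204 CPM in benign samples 3, 4 and 6 and at 621 to 959 CPM (median 728) in tumors. Benign sample 4 stood above the other benign samples and still below every tumor. The log2 fold change was 1.65 ± 0.28 (adjusted p = 0.00027) with all benign samples and 2.19 ± 0.19 (adjusted p = 1.1e-05) with benign samples 1, 2 and 5. Pfkp was at 97.3, 84.1 and 98.5 CPM, 81.8, 137 and 79.4 CPM and 209 to 419.9 CPM (median 321), again without overlap (log2 fold change 1.73 ± 0.20, adjusted p = 1.1e-05, and 1.81 ± 0.24, adjusted p = 0.00019). The muscle gene Pfkm is the member whose call reversed. It was at 42.8, 50.6 and 46.3 CPM in benign samples 1, 2 and 5, at 949, 644 and 1779 CPM in benign samples 3, 4 and 6 and at 78.1 to 155 CPM (median 86.6) in tumors, so that the tumors lay between the benign sets and overlapped neither. With all benign samples it was lower (-2.54 ± 0.86, adjusted p = 0.023) and with benign samples 1, 2 and 5 higher (1.15 ± 0.24, adjusted p = 0.0029). Benign samples 1, 2 and 5 were chosen as poor in muscle RNA. The second value of Pfkm, a muscle isoform, is therefore partly set by that choice. Without benign sample 6, which held the most muscle marker RNA, the log2 fold change with the remaining benign samples was -1.79. The summed Pfkl and Pfkp level per kilobase was 3.94 times that of benign samples 1, 2 and 5 and 3.42 times that of benign samples 3, 4 and 6, by medians. With Pfkm added the second ratio was 0.733.

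The Pfkfb genes encode bifunctional enzymes that make and break fructose 2,6-bisphosphate, the strongest activator of phosphofructokinase. Of the 4 genes, 3 fell and 1 rose in both comparisons. Pfkfb3, a form with high kinase activity and the highest mean CPM of the 4, was at 192, 131 and 121 CPM, 228, 411 and 225 CPM and 11.9 to 56.9 CPM (median 19.7), with all tumors below all benign samples (log2 fold change -2.99 ± 0.45, adjusted p = 9.4e-05, and -2.39 ± 0.46, adjusted p = 0.002). Pfkfb1, known from liver and muscle, fell too. It went from 24.1 to 59.5 CPM (median 29.2) in benign samples to 1.09 to 2.41 CPM (median 1.95) in tumors (log2 fold change -4.30 ± 0.30, adjusted p = 1.2e-07, and -3.78 ± 0.23, adjusted p = 1.4e-06). Pfkfb4 fell as well, with log2 fold changes of -2.61 and -2.14. Pfkfb2, known from heart, rose instead, from 4.42 to 11.5 CPM (median 7.09) in benign samples to 17.9 to 36.5 CPM (median 25.5) in tumors (log2 fold change 1.83 ± 0.25, adjusted p = 4.3e-05, and 1.84 ± 0.34, adjusted p = 0.0015). Per kilobase it went from 2.01 to 4.10% of the Pfkfb sum in benign samples 1, 2 and 5 to 30.9 to 56.8% in tumors, while that sum itself had a tumor median 0.243 times that of benign samples 1, 2 and 5 and 0.138 times that of benign samples 3, 4 and 6.

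The call depended on the reference for 9 of the 16 genes from hexokinase to lactate dehydrogenase. Of the 16, 5 were higher, 1 lower and 10 not called with all benign samples, and 14 were higher, 1 lower and 1 not called against benign samples 1, 2 and 5. Of all genes tested, 28.2% were higher and 34.8% lower in the first comparison and 26.7% and 28.7% in the second. Their median log2 fold change was 0.35 and 1.18. The gene that fell was Hk2 in both cases. Against benign samples 3, 4 and 6 alone, 4 of the 16 were higher and 5 lower, where 29.5% and 32.0% of all genes tested were. Muscle marker RNA moved with this difference, and so did brown fat marker RNA. The latter took 0.0134 to 0.221% of counts in benign samples 3, 4 and 6 and 0.00262 to 0.0109% in benign samples 1, 2 and 5. The part of either in the result was not tested beyond the split of the benign samples, which does not separate them. The median of the tumors lay between the medians of the benign sets for Gpi1, Aldoa, Tpi1, Gapdh, Pgk1, Pkm, Ldha and Ldhb.

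**Figure D2:**
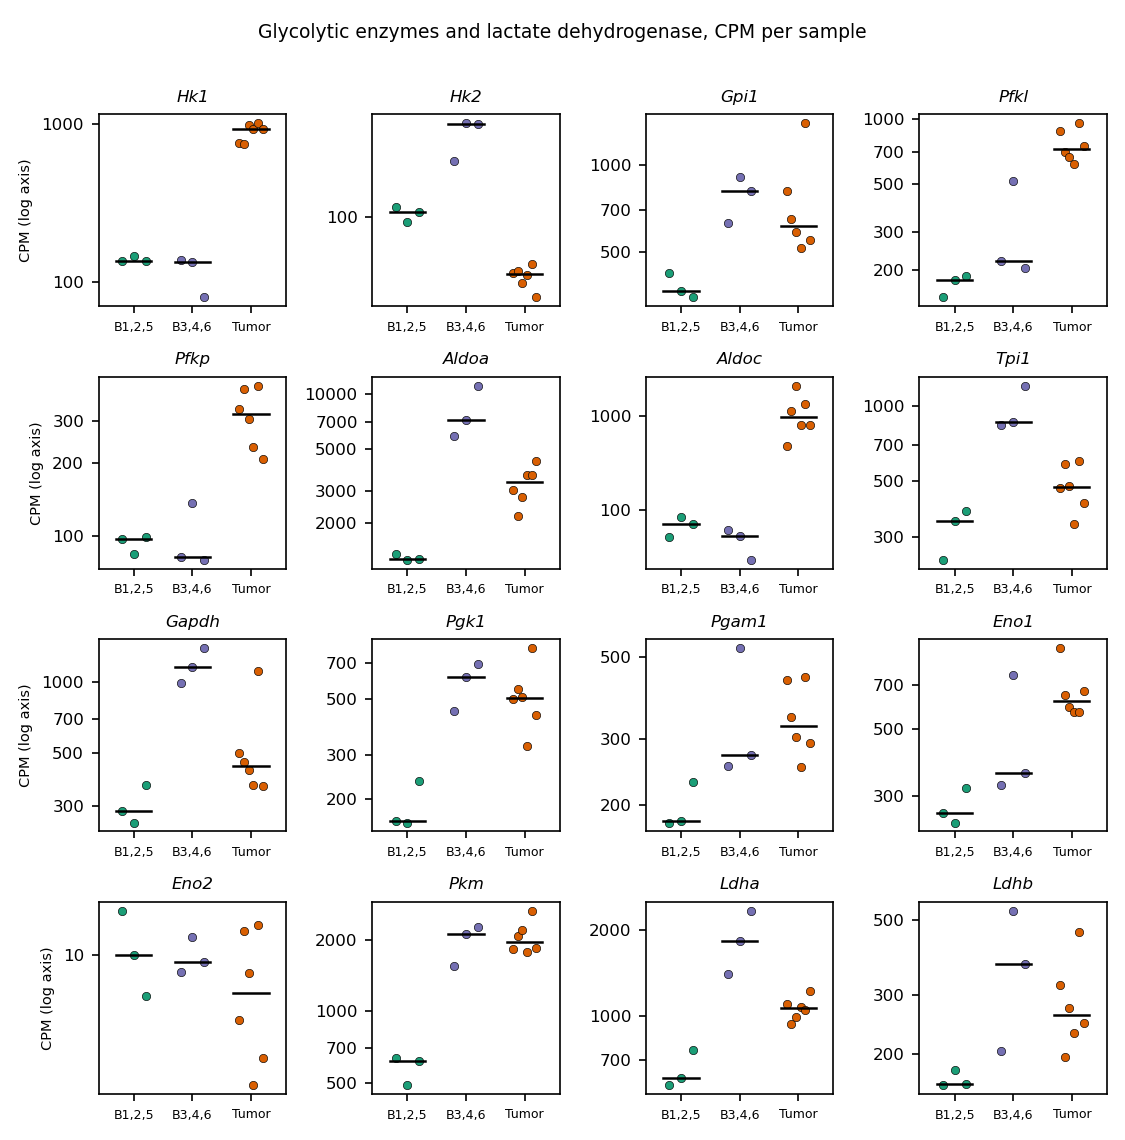
CPM (y axes, log scale, ranges differ between panels) of the 16 genes from hexokinase to lactate dehydrogenase in benign samples 1, 2 and 5 (green), benign samples 3, 4 and 6 (purple) and 6 tumors (orange); points are samples and bars are medians. Tumors lie above all benign samples for Hk1, Pfkl, Pfkp and Aldoc, below them for Hk2, and between the benign sets for Aldoa.

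Aldolase cleaves fructose 1,6-bisphosphate. Aldoa, its main form, was at 1358, 1263 and 1273 CPM in benign samples 1, 2 and 5, at 5922, 7182 and 11090 CPM in benign samples 3, 4 and 6, and at 2191 to 4316 CPM (median 3336) in tumors. The tumors lay between the benign sets without touching either, so the log2 fold change was -0.52 ± 0.53 (adjusted p = 0.43) with all benign samples and 1.38 ± 0.24 (adjusted p = 0.001) with benign samples 1, 2 and 5. Aldoc, known as the brain form, did not depend on the reference and had the largest rise of the tested members. It was at 52.1, 83.6 and 71.3 CPM, 61.1, 53.3 and 29.5 CPM and 483 to 2105 CPM (median 969.9), and the log2 fold change was 4.24 ± 0.38 (adjusted p = 8.8e-07), 18.9-fold, and 4.03 ± 0.50 (adjusted p = 0.00011). Even so, Aldoa stayed the main form. Aldoc was 7.96 to 29.2% of aldolase per kilobase in tumors and 2.04 to 3.47% in benign samples 1, 2 and 5 (12.5 to 40.5% and 3.31 to 5.58% with the union of exons). In the GENCODE annotation 2 genes share the symbol Aldoa, and the table holds 1 row for them.

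The calls of Tpi1 and Gapdh, which handle the triose phosphates, depended on single benign samples. Tpi1 was at 243, 348 and 383 CPM, 843, 867 and 1209 CPM and 337 to 606 CPM (median 475), with 5 of 6 tumors above benign samples 1, 2 and 5 (0.60 ± 0.22, adjusted p = 0.047) and no call with all benign samples (-0.43 ± 0.35, adjusted p = 0.32). Without benign sample 1 the Tpi1 call against benign samples 2 and 5 was lost, with a log2 fold change of 0.42. Gapdh, often used as a reference gene, was at 287, 256 and 367 CPM in benign samples 1, 2 and 5, at 989, 1153 and 1384 CPM in benign samples 3, 4 and 6, and at 364 to 1106 CPM (median 442) in tumors. Tumor 5 stood apart as the highest tumor. Gapdh has many processed copies in the mouse genome, and how their reads were assigned was not tested. The log2 fold change was -0.46 ± 0.46 (adjusted p = 0.41) and 0.86 ± 0.36 (adjusted p = 0.071). The second call was lost without benign sample 1 or benign sample 2. Over all fits with 1 sample left out, the second value ran from 0.52 to 1.03.

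Pgk1, which makes the first ATP of the payoff phase, was at 163, 161 and 236 CPM in benign samples 1, 2 and 5, at 449.6, 612 and 693 CPM in benign samples 3, 4 and 6, and at 324 to 801 CPM (median 506) in tumors. All tumors exceeded benign samples 1, 2 and 5 (1.52 ± 0.27, adjusted p = 0.0013), and the comparison with all benign samples gave 0.43 ± 0.38 (adjusted p = 0.35). Pgam1, phosphoglycerate mutase, was at 179.5, 182 and 230 CPM, 254, 527 and 272 CPM and 253 to 439.8 CPM (median 325). Its rise against benign samples 1, 2 and 5 (0.85 ± 0.20, adjusted p = 0.0064) was not matched by a call with all benign samples (0.33 ± 0.26, adjusted p = 0.3), unless benign sample 4 was left out (0.62). The muscle gene Pgam2 was listed at 0 in benign samples 1 and 2, at 2.62 CPM in benign sample 5, at 476, 362 and 778 CPM in benign samples 3, 4 and 6, and at 0 to 1.28 CPM in tumors, and it did not pass the filter on low counts in either comparison.

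Eno1, the common enolase, was called higher in both comparisons. It was at 263, 244 and 319 CPM, 326, 757 and 357 CPM and 571 to 933 CPM (median 622), with benign sample 4 inside the range of the tumors (log2 fold change 0.82 ± 0.26, adjusted p = 0.018, and 1.32 ± 0.20, adjusted p = 0.00042). Eno2, the neuronal form, was low throughout, at 5.74 to 18.0 CPM (median 9.48) in benign samples and 1.76 to 14.8 CPM (median 6.01) in tumors, and was not called (-0.49 and -0.53). Eno3, the muscle form, was at 27.2, 8.95 and 14.1 CPM, 1299, 972 and 2427 CPM and 4.83 to 10.7 CPM (median 5.99). It fell in both comparisons (log2 fold change -6.85 ± 1.37, adjusted p = 0.00091, and -1.22 ± 0.35, adjusted p = 0.015), yet 1 tumor overlapped benign samples 1, 2 and 5, and without benign sample 1 the second call was lost (-0.72). As for Pfkm, its level in benign samples 1, 2 and 5 was partly set by how they were chosen. Without benign sample 6 the first value was -6.08. Pkm, pyruvate kinase, was at 637, 489 and 619.7 CPM, 1558, 2128 and 2270 CPM and 1772 to 2658 CPM (median 1959). The tumors were all above benign samples 1, 2 and 5 and mixed with benign samples 3, 4 and 6, with log2 fold changes of 0.68 ± 0.37 (adjusted p = 0.14) and 1.87 ± 0.19 (adjusted p = 3.1e-05). Gene counts do not separate the M1 and M2 transcripts of Pkm.

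Lactate dehydrogenase reduces pyruvate to lactate as a tetramer of Ldha and Ldhb chains. Ldha was at 571, 605 and 761 CPM in benign samples 1, 2 and 5, at 1396, 1829 and 2328 CPM in benign samples 3, 4 and 6, and at 932 to 1219 CPM (median 1059) in tumors. The tumors lay in a narrow band between the benign sets, with log2 fold changes of -0.24 ± 0.33 (adjusted p = 0.56) and 0.76 ± 0.16 (adjusted p = 0.003). Ldhb was at 162, 179.7 and 163 CPM, 204, 534 and 371 CPM and 197 to 461 CPM (median 261), with log2 fold changes of 0.10 ± 0.32 (adjusted p = 0.81) and 0.82 ± 0.25 (adjusted p = 0.021). The ratio of Ldha to Ldhb within a library did not differ detectably. It was 1.18 to 2.30 on the log2 scale in tumors, 1.75 to 2.22 in benign samples 1, 2 and 5 and up to 2.78 in the other benign samples, and the difference in means was -0.24 with all benign samples (exact permutation test, two-sided, p = 0.4, adjusted p = 0.46) and -0.00 with benign samples 1, 2 and 5 (p = 0.857, adjusted p = 0.91).

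The monocarboxylate transporters carry lactate and pyruvate across the cell membrane. Slc16a1 (MCT1) was at 55.2, 51.3 and 75.5 CPM, 98.4, 202 and 118 CPM and 5.54 to 23.7 CPM (median 6.90). Every tumor was below every benign sample, tumor 5 being the highest tumor, and the log2 fold change was -3.38 ± 0.46 (adjusted p = 3.8e-05) and -2.62 ± 0.43 (adjusted p = 0.00069). Slc16a3 (MCT4), the exporter typical of glycolytic cells such as white muscle, was at 2.04, 0.716 and 1.998 CPM, 31.5, 30.3 and 74.0 CPM and 2.16 to 13.2 CPM (median 5.68). It rose against benign samples 1, 2 and 5, where it was at most 2.04 CPM (2.19 ± 0.68, adjusted p = 0.023), and was not called with all benign samples (-1.74 ± 0.93, adjusted p = 0.13). Without benign sample 6 the latter value was -0.93. Slc16a3 was also lower in benign samples 1, 2 and 5 than in benign samples 3, 4 and 6, as muscle marker RNA was. The part of this in its rise was not tested, and its lowest count in any sample was 6. The sum of Slc16a1 and Slc16a3 per kilobase was 0.265 times that of benign samples 1, 2 and 5 and 0.0785 times that of benign samples 3, 4 and 6, by medians. In 6 of 6 tumors this sum was below all benign samples. Bsg (basigin), the chaperone that carries both to the membrane, rose by 0.72 on the log2 scale with all benign samples and by 1.07 against benign samples 1, 2 and 5.

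All 4 genes of the pyruvate dehydrogenase complex among the members fell, with either reference. Of all genes tested, 34.8% were called lower with all benign samples and 28.7% against benign samples 1, 2 and 5. Pdha1, of the E1 component, was at 480, 403 and 415 CPM in benign samples 1, 2 and 5, at 619.9, 1245 and 1101 CPM in benign samples 3, 4 and 6, and at 225 to 291 CPM (median 248) in tumors. The log2 fold change was -1.49 ± 0.29 (adjusted p = 0.00068) with all benign samples and -0.73 ± 0.12 (adjusted p = 0.00078) with benign samples 1, 2 and 5. Pdhb, the other E1 subunit, fell by 1.65 and 0.90, Dlat, the E2 acetyltransferase, by 1.51 and 0.62, and Pdhx, which binds E3 to the complex, by 1.81 and 1.12. For all 4 genes every tumor lay below every benign sample, as for 21.2% of all genes tested with all benign samples. Against benign samples 1, 2 and 5 that share was 25.4%. Adipocyte markers were also lower in tumors than in benign samples 1, 2 and 5, and their part was not tested. Dld, the E3 subunit shared with other dehydrogenases, fell by 1.61 and 0.80, and the pyruvate carrier genes Mpc1 and Mpc2, which bring pyruvate into mitochondria, changed by -2.46 and -1.52 on the log2 scale with all benign samples and by -1.59 and -0.74 with benign samples 1, 2 and 5. Per kilobase, Pdha1 made up 46.3 to 47.6% of the 4 genes in benign samples 1, 2 and 5 and 43.7 to 51.9% in tumors, and the ranges of Pdhb and Dlat overlapped as well. Pdhx made up 4.82 to 5.76% in benign samples 1, 2 and 5, 4.21 to 5.47% in benign samples 3, 4 and 6 and 3.52 to 4.70% in tumors, below the first set without overlap.

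The regulators of the complex did not move as 1 group. The kinases Pdk1 to Pdk4 switch it off by phosphorylation. Pdk4, the form induced by fasting in muscle and fat, was at 91.3, 50.6 and 52.4 CPM, 52.9, 649.9 and 333 CPM and 0.675 to 2.43 CPM (median 1.08), and its log2 fold change of -7.26 ± 0.87 (adjusted p = 1.4e-05), 153-fold lower, was the largest fall of the tested members with all benign samples. Against benign samples 1, 2 and 5 it was -5.55 ± 0.35 (adjusted p = 1.7e-06), next to -5.80 for Slc2a4. Benign sample 4 held the highest Pdk4 level, and without it the first value was -6.44, next to -6.78 for Eno3 and -6.50 for Slc2a4, so that the order of the falls rested on this sample. Pdk2 was at 102, 106 and 91.5 CPM, 260.4, 348 and 413 CPM and 114 to 156 CPM (median 139), all tumors lying between the benign sets (log2 fold change -0.71 ± 0.36, adjusted p = 0.11, and 0.47 ± 0.13, adjusted p = 0.013). Pdk1 was at 61.0, 49.3 and 45.3 CPM, 60.2, 104 and 88.8 CPM and 50.8 to 93.7 CPM (median 63.9). It was not called with all benign samples (0.03 ± 0.22, adjusted p = 0.93), and its call against benign samples 1, 2 and 5 (0.46 ± 0.20, adjusted p = 0.083) was lost on leaving out any 1 of 5 samples (benign 2 and 5, tumors 1, 2 and 5). Pdk3 was not called (-0.16 and -0.43). Summed per kilobase, the 4 kinases had a tumor median 1.04 times that of benign samples 1, 2 and 5 (0.968 with the union of exons) and 0.268 times that of benign samples 3, 4 and 6, with Pdk2 at a median of 75.8% of the sum in tumors and 55.7% in benign samples 1, 2 and 5.

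The phosphatases Pdp1 and Pdp2, which switch the complex back on, both fell. Pdp2 was at 30.2, 17.7 and 24.5 CPM, 23.7, 59.0 and 40.3 CPM and 6.15 to 11.1 CPM (median 8.45), with log2 fold changes of -1.97 ± 0.28 (adjusted p = 6.1e-05) and -1.48 ± 0.22 (adjusted p = 0.00039). Pdp1 fell by 2.53 and 2.07. Neither overlapped between tumors and benign samples. Pcx, pyruvate carboxylase, which feeds oxaloacetate to the citric acid cycle and to fat synthesis, fell as well. It was at 769, 561 and 756 CPM in benign samples 1, 2 and 5, at 700.3, 973 and 964 CPM in benign samples 3, 4 and 6, and at 51.5 to 73.7 CPM (median 61.0) in tumors. The log2 fold change was -3.66 ± 0.17 (adjusted p = 4.9e-09), 12.6-fold lower, and -3.43 ± 0.14 (adjusted p = 2.3e-07). Pcx overlapped between the benign sets, and it fell along with the adipocyte, fibroblast and endothelial markers, whose part was not tested.

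**Figure D3:**
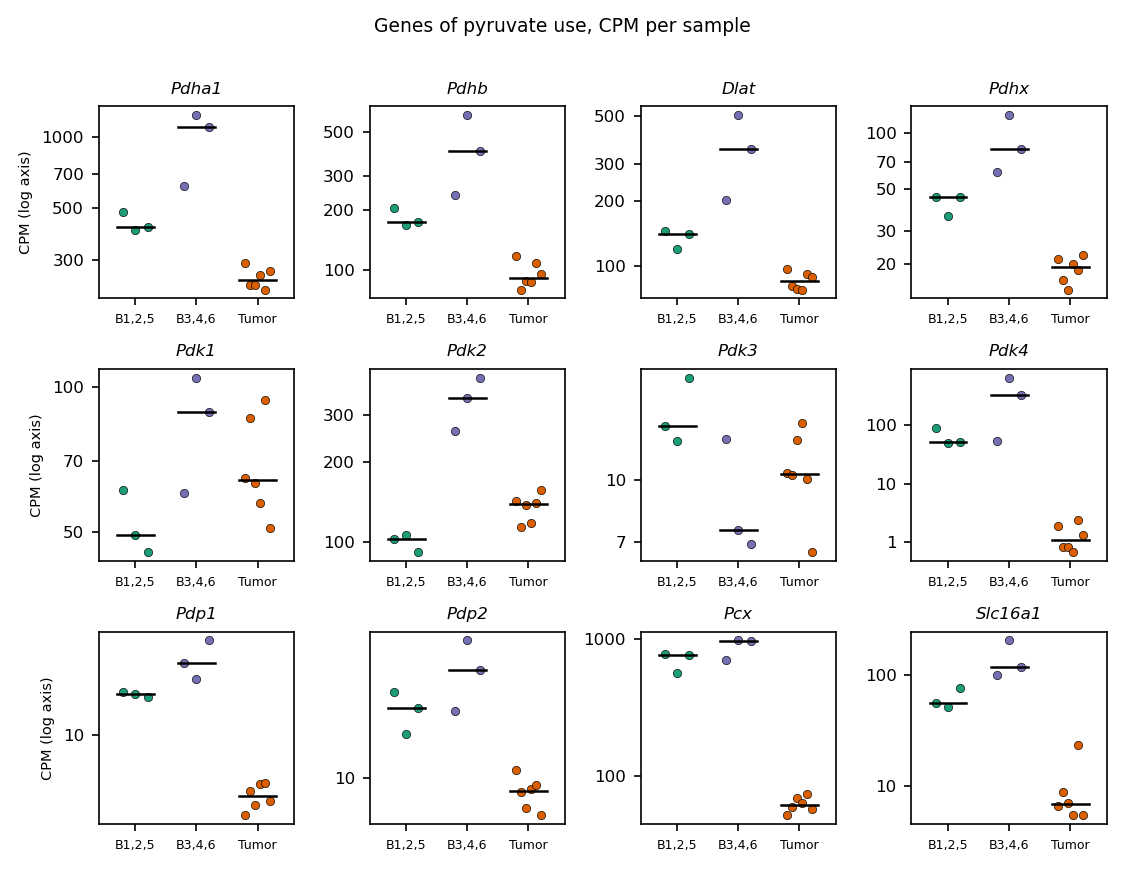
CPM (y axes, log scale, ranges differ between panels) of the pyruvate dehydrogenase complex, its kinases and phosphatases, Pcx and Slc16a1 in benign samples 1, 2 and 5 (green), benign samples 3, 4 and 6 (purple) and 6 tumors (orange); points are samples and bars are medians. Tumors lie below all benign samples for the 4 genes of the complex, Pdk4, Pdp1, Pdp2, Pcx and Slc16a1, and overlap benign samples for Pdk1 and Pdk3.

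Ratios of isoforms within a library do not depend on how libraries are scaled. For 16 pairs, the log2 ratio of counts (0.5 counts added to each) was compared by exact two-sided permutation tests, adjusted over the 16 pairs. The smallest p these allow is 0.00216 with all benign samples and 0.0238 with benign samples 1, 2 and 5. Of the 16 pairs, 10 differed in each comparison, and 8 differed in both. Pairs of other genes were not tested, so how often pairs outside this list differ is not known here. By the exact permutation test, Hk2 to Hk1 was -5.24 to -4.26 in tumors and -0.66 to 2.67 in benign samples, a difference in means of -5.41 (p = 0.00216, adjusted p = 0.0058) and, against benign samples 1, 2 and 5, -4.28 (p = 0.0238, adjusted p = 0.054). Slc2a4 to Slc2a1 showed the largest shift. It was -8.56 to -4.22 in tumors and 1.82 to 4.03 in benign samples, and the differences in means were -8.79 and -7.94, both at the smallest p. Aldoc to Aldoa differed by 4.15 and 2.58, Pdk4 to Pdk1 by -6.61 and -6.03, Slc2a3 to Slc2a1 by -4.71 and -4.52, and Eno3 to Eno1 by -5.38 and -2.44, each without overlap and at the smallest p. Leaving out 1 sample moved Slc2a3 to Slc2a1 to -3.75 against benign samples 2 and 5, and Eno3 to Eno1 to between -4.58 (without benign sample 6) and -6.09 (without benign sample 2) with the remaining benign samples. In the exact test Slc16a3 to Slc16a1 was higher in tumors by 2.96 (p = 0.0173, adjusted p = 0.035) and 4.77 (p = 0.0238, adjusted p = 0.054). Pfkm to Pfkp was lower in tumors by both references (-2.87 and -0.66, adjusted p = 0.0099 and 0.076), although Pfkm itself was higher than in benign samples 1, 2 and 5. Without benign sample 6 the first of these values was -2.22. Ratios with a muscle isoform, against benign samples 1, 2 and 5, were partly set by how those samples were chosen. Other genes of these ratios, such as Slc16a3, Aldoa and Hk2, were also higher in benign samples 3, 4 and 6 without overlap, as muscle marker RNA was. The part of this in their ratios was not tested. Pfkl to Pfkp differed by 0.07 and 0.41 (exact p = 0.794 and 0.119).

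**Figure D4:**
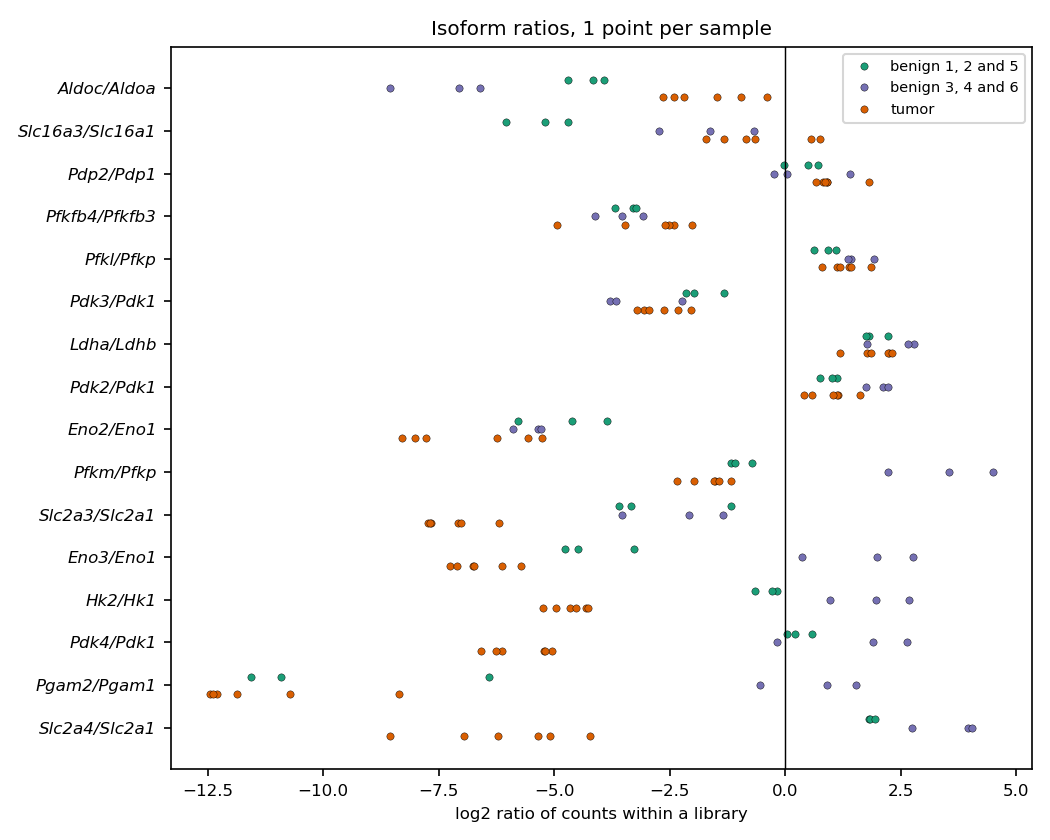
Log2 ratio of the counts of 2 isoform genes within each library (x axis) for 16 pairs (y axis, ordered by the difference between tumors and all benign samples), with 1 point per sample in benign samples 1, 2 and 5 (green), benign samples 3, 4 and 6 (purple) and tumors (orange). Tumors are separated from all benign samples for Slc2a4/Slc2a1, Hk2/Hk1, Pdk4/Pdk1, Slc2a3/Slc2a1, Eno3/Eno1 and Aldoc/Aldoa, and overlap them for Ldha/Ldhb and Pfkl/Pfkp.

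The spread of the members differed between the sets of samples. Over the 35 members outside the muscle isoforms, the median SD of log2(CPM + 1) was 0.319 in tumors (all tested genes 0.272), 0.201 in benign samples 1, 2 and 5 (0.211), 0.464 in benign samples 3, 4 and 6 (0.270) and 0.636 over all benign samples (0.314). Tumor 5 was the highest of the 6 tumors for 20 of 38 members with counts in every tumor (52.6%), and for 12 of the 16 genes from hexokinase to lactate dehydrogenase (75.0%), against 26.0% of 12821 tested genes. Tumor 4 was the lowest for 13 of the 38 (34.2%), against 13.4% of those genes. Slc2a1 did not follow this order, since tumor 5 was its lowest tumor. Tumor 5 also held the most muscle marker RNA of the tumors (0.0177% of counts), and the part of this in its values was not tested. Without tumor 5 the number of members called higher was 7 with all benign samples and 19 with benign samples 1, 2 and 5.

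Of 34 other genes of glucose and pyruvate metabolism, 28 were in the table and 24 were tested. With all benign samples 3 rose and 16 fell, and with benign samples 1, 2 and 5, 4 rose and 13 fell. Of all genes tested, 28.2% rose and 34.8% fell in the first comparison and 26.7% and 28.7% in the second. The largest falls were in genes of glyceride and glucose synthesis and of fructose uptake. Pck1, the cytosolic enzyme that makes phosphoenolpyruvate, went from 258.7 to 1935 CPM in benign samples to 0.675 to 8.45 CPM in tumors (log2 fold change -7.86 with all benign samples and -6.92 with benign samples 1, 2 and 5). Slc2a5, the fructose transporter, was at 6.09 to 39.7 CPM and 0 to 0.623 CPM (-7.15 and -6.54), and Gpd1, which makes glycerol 3-phosphate, at 985 to 5599 CPM and 23.0 to 89.8 CPM (-5.37 and -4.34). Gpd2, the mitochondrial partner of Gpd1, fell as well (-2.78 and -1.45), as did Tigar, a fructose 2,6-bisphosphatase (-2.74 and -1.09), and Pgm1, of glycogen metabolism (-2.57 and -1.29). Pck2, the mitochondrial form of Pck1, rose instead, by 0.84 and 0.58, from 36.2 to 79.5 CPM in benign samples to 86.0 to 110.7 CPM in tumors without overlap.

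Of 16 regulators of these genes, 15 were tested with all benign samples, of which 4 rose and 3 fell. With benign samples 1, 2 and 5, 16 were tested, and 5 rose and 2 fell. The share that rose was set beside 28.2% and 26.7% of all genes tested, and the share that fell beside 34.8% and 28.7%. Egln3, a prolyl hydroxylase that marks HIF proteins for degradation, was at 15.6 to 64.5 CPM in benign samples and 530.4 to 971 CPM in tumors, a log2 fold change of 4.50 with all benign samples and 5.32 with benign samples 1, 2 and 5. Mlxipl, the glucose-sensing factor ChREBP, was at 124 to 522 CPM in benign samples and 5.92 to 10.7 CPM in tumors (-4.97 and -4.11). Epas1 (HIF-2 alpha) fell in both comparisons, with log2 fold changes of -2.65 and -2.40. Egln1, another prolyl hydroxylase, fell by 1.19 with all benign samples and was not called against benign samples 1, 2 and 5 (-0.42, adjusted p = 0.1 by edgeR's quasi-likelihood test). Ppargc1a, a coactivator of mitochondrial genes, rose by 1.46 and 2.84, Mlxip, a relative of Mlxipl, by 0.82 and 0.87 and Hif1a by 0.53 and 0.58. Prkaa2, a catalytic subunit of AMPK, rose by 1.81 against benign samples 1, 2 and 5 and was not called with all benign samples (-0.09). Myc was called in neither comparison (0.17 and -0.01).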

How the data were processed

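Total RNA from bulk tissue was made into poly A selected, directional libraries and sequenced as paired reads. Per the labels, the authors trimmed reads with Trim Galore and quantified them with Salmon on mm10 (GRCm38). Their versions were not given in the sources used here. The deposited values are expected counts per gene symbol, which the authors made with Salmon and did not normalize, in 1 table of 12 columns with no gene under 5 counts in total. Since every gene name is a single row, reads of near-identical copies cannot be told apart.

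The counts in the table were whole numbers. They were analysed in edgeR 4.0.16 (R 4.3.3) with TMM scaling and filterByExpr (minimum count 10, minimum total 15). The quasi-likelihood F test was used, with Benjamini-Hochberg adjustment over all genes tested. An adjusted p under 0.1, the level used in the study, was called. The SE was the log2 fold change divided by the square root of F. Tumors were compared with 6 benign samples, with benign samples 1, 2 and 5, and with benign samples 3, 4 and 6. Isoform ratios were compared by exact permutation tests (scipy 1.17.1). The scripts were tested on simulated data. Alternatives were DESeq2 1.42.0, other scalings, filters and thresholds, a replicate block, and leaving out each sample. Per-kilobase levels used the length of the longest APPRIS principal transcript in GENCODE M21. Depth was 5240853 to 8588567 counts per library, so a level of 1 CPM rests on fewer than 10 counts.

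The 39 members, the other lists and the split of the benign samples were chosen with earlier results of these data known. Values per sample are given for the isoform with the highest mean CPM at each step, the 5 largest rises and 5 largest falls with all benign samples, and members whose call differed between references. Of the other lists, up to 6 called genes with the largest fold change were to be named. Slc2a3, Hk2, Pfkfb4, Pgam2, Eno2, Pdhb, Dlat, Pdhx, Pdk3, Pdp1, Bsg, Dld, Mpc1, Mpc2, Pck2, Hif1a, Prkaa2 and Myc were given with values outside this rule, after their values were seen. Whether samples of a group were separate mice was taken from the study's account of biological replicates. No 2 libraries of a group differed by less than sampling noise (the lowest chi-square per degree of freedom between replicates was 13.0).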

Additional observations from a re-analysis of the deposited data

Results flagged for a closer look

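In groups of 6 samples, 9 of the 110 groups searched held a sample far from the others (its gap to the nearest value, on the log2 scale, took more than 0.625 of the range). Chance flags about 1 in 20 groups when the groups are independent and each is drawn from a single normal population. The groups here shared the same libraries, and the benign samples differed in muscle content, so this rate need not apply. Tumor 5 was flagged 4 times, as the highest tumor for Gapdh (1106 CPM), Slc16a1 (23.7 CPM) and Pgam2 (1.28 CPM) and as the lowest for Slc2a1 (79.8 CPM). Tumor 1 was the highest tumor for Eno1 (933 CPM) and had the highest log2 ratio of Pdp2 to Pdp1 (1.80). Among benign samples, number 4 was the highest for Pfkl (516 CPM) and Eno1 (757 CPM), and number 6 the lowest for Hk1 (80.1 CPM). Why these samples stood apart was not tested.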

How the results depend on the processing

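The numbers of members called kept within 1.5 times their value under every alternative run. With all benign samples, 6 to 8 were higher and 13 to 24 lower under the other tests, scalings, filters, thresholds and reference, and 7 to 9 and 17 to 19 when 1 sample was left out. Against benign samples 1, 2 and 5 the ranges were 18 to 20 and 12 to 16, and 18 to 20 and 15 to 16. Isoform ratios that differed numbered 10 with 2 counts added. On leaving out 1 sample they numbered 10 to 12 with all benign samples and 0 to 12 against benign samples 1, 2 and 5, where 6 tumors against 2 benign samples cannot give a p below 0.0714. Those 0 calls arose without benign 1, 2 or 5.

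Replicate numbers are shared between tumors and benign samples but do not pair them: the mice differed, and the correlations of same-numbered samples' deviations ran from -0.124 to 0.103. With the number as a replicate block, 8 members were higher and 16 lower with all benign samples, and 19 and 15 against benign samples 1, 2 and 5. Under that block Pfkm lost its call with all benign samples (-1.17, adjusted p = 0.42), as did Eno3 (adjusted p = 0.16) and Pdk2 (0.43, adjusted p = 0.15) against benign samples 1, 2 and 5, Aldoa with all benign samples moved to 0.00, and Eno2 against benign samples 1, 2 and 5 to 0.02.

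With all benign samples, Pkm was called under DESeq2 (adjusted p = 0.089), both other filters (0.099), total counts (0.045) and the block (0.09), and without benign 4 or 6. Slc16a3 was called under DESeq2 (adjusted p = 0.08) and without benign 1, 2 or 5, and Pdk2 without those same samples. Against benign samples 1, 2 and 5, Gapdh lost its call under upper-quartile scaling (0.79) and Pdk1 under that scaling (0.38), total counts (0.40) and the filter on every sample (0.39), and both at a threshold of 0.05. Signs turned, for values not called, on leaving out 1 sample: with all benign samples Ldha ran from -0.35 to 0.04, Ldhb from -0.01 to 0.42, Pdk1 from -0.07 to 0.19, Pdk3 from -0.28 to 0.01, the log2 ratio of Pfkl to Pfkp from -0.06 to 0.20 and that of Pdk3 to Pdk1 from -0.43 to 0.07. Against benign samples 1, 2 and 5 the ratio of Ldha to Ldhb ran from -0.09 to 0.15 and that of Pdk2 to Pdk1 from -0.10 to 0.14. The causes were not tested.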
